A study of Mus musculus with 14 samples.

Results

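Among the RARα CUT&RUN peaks listed for the mouse pancreatic acinar line 266-6, 411 of 1529 lay outside every protein-coding gene and outside longer runs of regions, and they made up 172 of 551 regions. A peak was taken when it lay on chromosomes 1 to 19, X or Y with a start at or past base 3300000 and met no RefSeq protein-coding gene span on mm10. Peaks were left out when they belonged to a run of 3 or more regions spaced by gaps of at most 100 kb, or met any of 5 listed intervals. Overlapping peaks of different lists were joined into 1 region. Runs of 2 were kept, and 15 of the 172 regions belong to such a run. Members were thus chosen by the positions of the called peaks themselves, so membership and the number of members are a description and were not tested.

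In CUT&RUN a nuclease is brought by an antibody to a chromatin protein, here retinoic acid receptor alpha, and releases the DNA beside it. The 266-6 line descends from a mouse acinar tumour driven by a viral oncogene under an acinar enzyme promoter, so it stands for transformed acinar cells. All cells were kept for 24 h in stripped medium and then for 24 h with DMSO (3 samples), 9-cis retinoic acid (3), AM580 (2), CD3254 (3) or AM+CD (3), 14 samples in all. The labels do not spell out AM+CD, whose peak names join the abbreviations of AM580 and CD3254. The sources used here give neither doses nor whether replicates were separate cultures. The labels point every replicate of a treatment to the same peak list, so each treatment is 1 list with no replicate check, and its acinar identity could not be checked because transcripts were not measured.

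On DNA, RARα pairs with a retinoid X receptor (RXR), mostly at repeats of a hexamer half-site such as AGGTCA, and occupies sites with or without ligand. Ligand exchanges corepressors for coactivators on the bound dimer. Many sites of nuclear receptors lie in enhancers between genes, far from any promoter. AM580 acts on RARα and CD3254 on RXR, each with little effect on the partner, whereas the natural ligand 9-cis retinoic acid binds both.

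Of the member regions, 2 met a promoter window of the RefSeq table, which covers 250 bases before to 50 bases after a gene start in GRCm38.p6, the assembly behind mm10. The stronger of these was chr4:118547216-118548710, listed in every treatment and overlapping the lncRNA gene Gm40237, 2296 bp from Tmem125. The table has 2 promoter windows for this gene. The window of the outer start, at 118547139, ends 28 bases before the region, holds 1 AGGTCA and had 41.0% of bases repeated at an offset of 44. The window that the region met (chr4:118547156-118547455, plus strand) was a tandem array in which 96.1% of bases recurred 44 bases further on. Such a period, with at least 90% of bases repeated, was present in 6 of 32851 promoter windows (0.0183%). The 6 complete units of 44 bases in the window that the region met are shown for the receptor half-site or a near copy of it, given in capitals. They were cut in steps of 44 bases from the first AGGTC of the window, and this cut puts the hexamer first in each unit.

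Gm40237 unit 1: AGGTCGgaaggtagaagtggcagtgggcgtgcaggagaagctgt
Gm40237 unit 2: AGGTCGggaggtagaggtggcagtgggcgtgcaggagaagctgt
Gm40237 unit 3: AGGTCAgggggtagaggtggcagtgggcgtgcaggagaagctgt
Gm40237 unit 4: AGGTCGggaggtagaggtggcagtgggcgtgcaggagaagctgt
Gm40237 unit 5: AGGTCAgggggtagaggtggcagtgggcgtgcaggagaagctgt
Gm40237 unit 6: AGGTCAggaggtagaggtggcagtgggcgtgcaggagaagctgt

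Unit 1 begins at chr4:118547183 and unit 6 ends at 118547446. The region begins at 118547216, inside unit 1, so the capitals of unit 1 lie before it. Units 3 and 5 were identical, as were units 2 and 4. Against units 3 and 5, with positions counted from 1 at the first capital, A6G appeared in 3 units, G9A in 4, G8A in 1 and G16A in 1. Units 3, 5 and 6 hold an intact AGGTCA, and the window holds 4 in all, searched on both strands. At least 4 AGGTCA occurred in 5 of 32851 promoter windows (0.0152%) and at least 1 in 16.3%. Other half-sites searched on both strands, AGTTCA and, as close variants, GGGTCA and then GGTTCA, were not in the window, nor was a direct repeat of these hexamers with a spacer of 1, 2 or 5 bases. These spacings were in 0.222%, 0.268% and 0.0974% of all windows. The match is a description of the letters, and binding at these hexamers was not tested.

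The summits of this region did not lie in the printed units. They stood 839 bases past the outer gene start with DMSO, 844 under 9-cis retinoic acid, 809 under AM580, 839 under CD3254 and 836 under AM+CD, inside the Gm40237 span and within 35 bases of each other. The fold is the authors' ratio of the summit over its local background, with 1 added to both. The added 1 lowers folds most where the background is low, as in the 9-cis retinoic acid list. At this region the fold was 15.8 under DMSO, 12.2 under 9-cis retinoic acid, 14.5 under AM580, 14.4 under CD3254 and 15.0 under AM+CD. Each fold is relative to its own list, so folds order the regions of a list and were not compared between lists. The peak was 1425 to 1492 bp wide in the 5 lists.

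The other promoter window belonged to AY761185 on chromosome 8. A region of the CD3254 list alone, chr8:20944953-20945338, began 205 bp from the gene and covered 46 bases of the window (chr8:20944953-20944998, minus strand). Those bases are shown because no other member reached the promoter window of a protein-coding gene, and they hold none of the 4 half-site hexamers.

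AY761185 promoter stretch: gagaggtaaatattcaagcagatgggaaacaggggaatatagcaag

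This peak had a fold of 5.37, with 20 fragments at its summit. Promoter windows on chromosome 18 were not used here, and sequence of the other members was not analysed here.

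The members numbered 68 of 286 DMSO peaks (23.8%, 95% Wilson interval 19.2 to 29.0), 64 of 200 under 9-cis retinoic acid (32.0%, 25.9 to 38.8), 85 of 323 under AM580 (26.3%, 21.8 to 31.4), 134 of 493 under CD3254 (27.2%, 23.4 to 31.3) and 60 of 227 under AM+CD (26.4%, 21.1 to 32.5). These intervals cover counting error only and overlap one another. Background coverage, the measure of depth recovered from the lists, was lowest with 9-cis retinoic acid at 0.544 fragments per base. It was 0.985 under AM580, 1.32 under DMSO, 2.13 under AM+CD and 2.36 under CD3254. Member summits rested on 6 to 327 fragments with 9-cis retinoic acid (median 21.5) and on 12 to 1142 under CD3254 (median 44). With DMSO the range was 9 to 649 (median 54), with AM580 8 to 461 (43) and with AM+CD 11 to 1091 (104).

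Most members belonged to few lists. Of the 172 regions, 89 were in a single list (51.7%, 44.3 to 59.1), against 39.7% of all 551 regions. Another 40 had a peak in every list (23.3%, 17.6 to 30.1), against 28.7% of all regions. The CD3254 list alone held 53, 9-cis retinoic acid alone 19, AM580 alone 13, AM+CD alone 4 and DMSO alone 0. Over all 551 regions, CD3254 alone held 163, 9-cis retinoic acid alone 24, AM580 alone 26 and AM+CD alone 5. These 4 lists held nearly all of the 219 single-list regions of the series, so DMSO alone was rare there too. With every list trimmed to its 200 best peaks, the members were 88 regions, 34 of them in a single list. Without the 9-cis retinoic acid list, 47 regions had a peak in all 4 of the others. The pair of counts, 40 and 47, differs by the 7 regions that every list but 9-cis retinoic acid held.

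**Figure D1:**
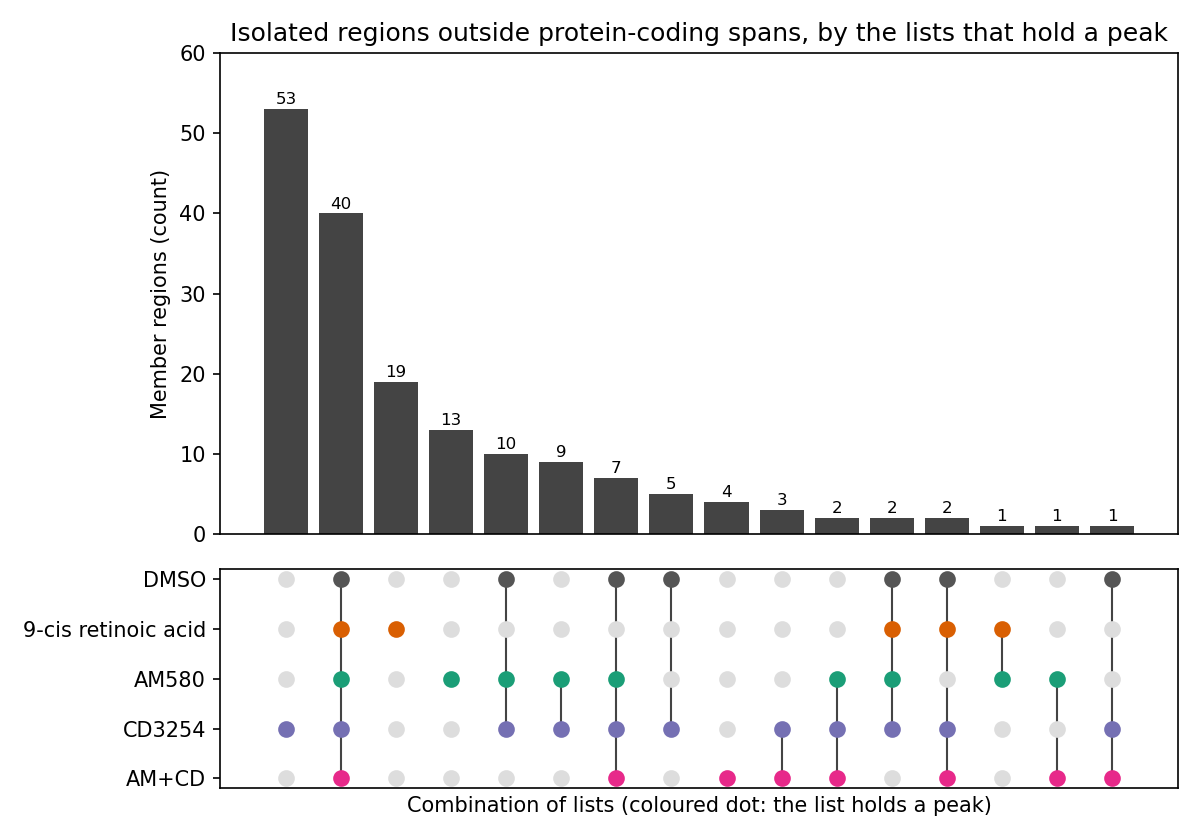
Bars count the 172 member regions by the combination of lists that hold a peak there, and coloured dots below each bar mark those lists. CD3254 alone (53) and all lists together (40) are the tallest bars, and no combination is DMSO alone. Over all 551 regions, CD3254 alone held 163 and all lists together 158, and DMSO alone was rare there too.

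Regions with a peak in every list had a higher median width than every other combination of lists with at least 4 regions. Their DMSO folds ran from 7.58 to 30.6 with a median of 15.4, and their union width from 345 to 2252 bp with a median of 569 bp. Summits of the 5 lists fell within 100 bp of each other in 29 of 40 (median spread 51 bp, lowest 6 bp). The widest spreads were at Zfp825 (1093 bp), Gm39469 (986 bp) and Gdi2 (874 bp), in regions of 1623 to 2252 bp. The order of folds among the 40 was alike from list to list. Spearman's rank correlation across these regions was 0.86 to 0.96 over the 10 pairs of lists, lowest for 9-cis retinoic acid with CD3254. The regions share cell line, antibody and genome, so this describes the lists and carries no p.

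By mean rank of −log10 q (the caller's adjusted p) over the lists, the leading region was chr15:75085484-75087110, 21051 bp from Ly6c2, the gene of a monocyte surface antigen. It rested on summit pileups of 649 fragments with DMSO, 327 under 9-cis retinoic acid, 461 under AM580, 1142 under CD3254 and 1091 under AM+CD. Its local background was high, at 68.8 fragments per base with DMSO, which left a fold of 9.31. Pileups here followed the depth of the calls, lowest with 9-cis retinoic acid and highest with CD3254.

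The second, chr12:74803866-74804576, lay 92641 bp from Kcnh5, a voltage-gated potassium channel gene. Its folds were 24.1 under DMSO, 19.1 under 9-cis retinoic acid, 25.6 under AM580, 25.4 under CD3254 and 23.2 under AM+CD. All 5 summits fell within 18 bp. The third, chr13:9011688-9012240, met the lncRNA gene Gm36264 and was 15572 bp from Gtpbp4. Its summit pileups were 221 under DMSO, 98 under 9-cis retinoic acid, 353 under AM580, 377 under CD3254 and 346 under AM+CD, within 17 bp of each other. Among members it had the highest fold of the 9-cis retinoic acid list (23.1) and the next highest of the DMSO (30.6) and AM580 (36.4) lists.

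The fourth, chr11:54140029-54140818, was 8361 bp from P4ha2, which encodes a catalytic subunit of collagen prolyl hydroxylase. Its folds lay between 14.3 and 17.8. The fifth, chr3:56575435-56575856, was 391687 bp from Nbea, a neuronal scaffold gene, with folds of 20.2 to 28.1. At chr1:195241568-195241980, 64688 bp from the complement receptor gene Cr2, the folds were 16.5 to 31.2 and the summits fell within 14 bp. From the region near Kcnh5 to that near Cr2, the summits of the 5 lists lay within 41 bp.

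Next came chr11:109011646-109012183, in the lncRNA gene Gm36876 and 60863 bp from Axin2, a scaffold that limits Wnt signalling, with folds of 19.0 to 24.5. The broad region chr13:74528615-74530866 met the pseudogene Gm20590, 34603 bp from Zfp825, with folds of 7.09 to 9.62. The list of 10 closed with chr3:5860339-5860923, 281743 bp from the peroxisome assembly gene Pex2 (18.0 to 24.4), and chr9:124256353-124257975, 9909 bp from Gm39469 (9.72 to 12.3). The 3 regions of 1623 bp or wider among the 10 had folds of at most 12.3, and the narrower 7 of at least 14.3.

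**Figure D2:**
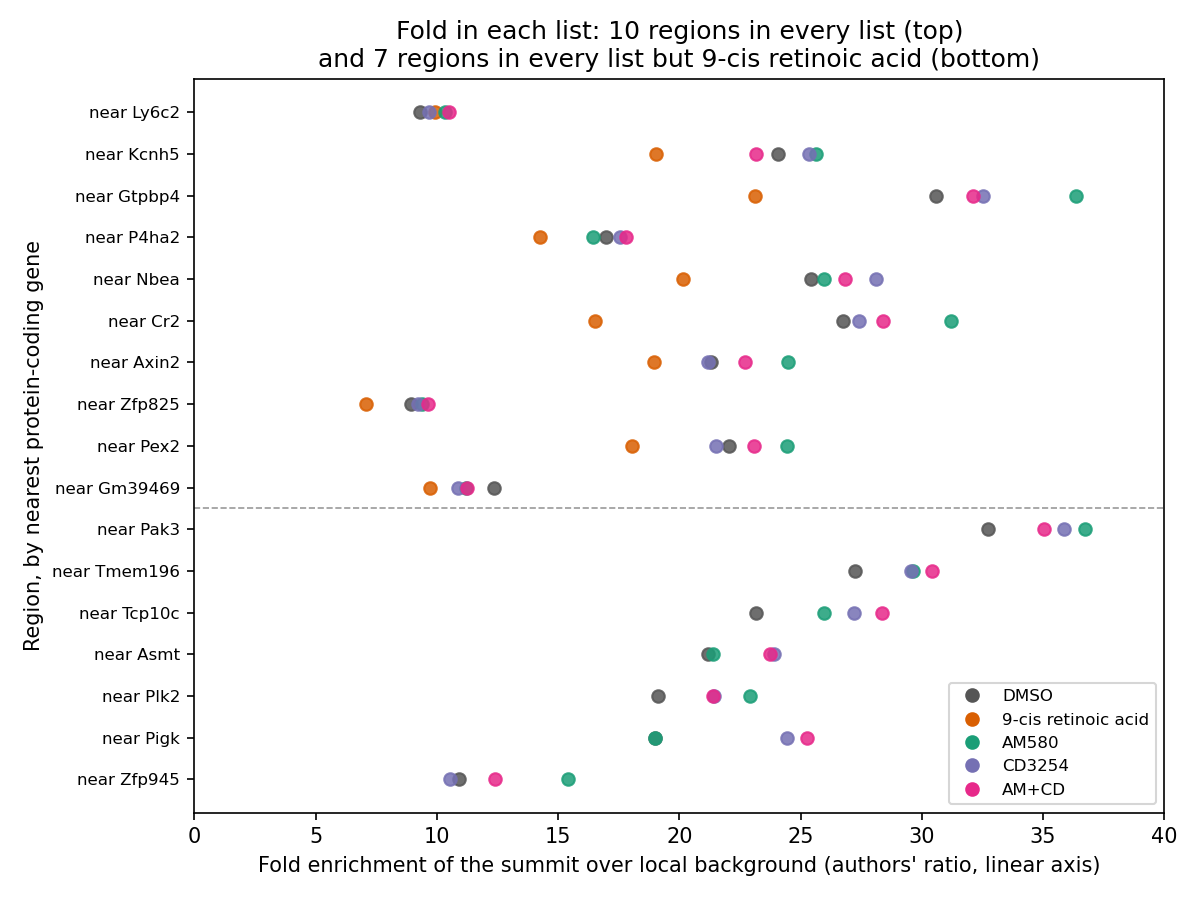
Each row is a member region named by its nearest protein-coding gene, and each point is the authors' fold over local background in 1 list. The 10 upper rows have a point for every list, and the 7 lower rows, with DMSO folds of 10.9 to 32.7, have none for 9-cis retinoic acid.

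The comparison of 9-cis retinoic acid with DMSO concerns peaks that came or went with a ligand of RAR and RXR. Of its 64 member peaks, 44 overlapped DMSO by at least 1 bp (68.8%, 56.6 to 78.8) and 20 stood without it, against 86.5% and 13.5% over its whole list. The 20 were weak: 19 were in no other list, with folds of 4.50 to 8.66, −log10 q of 1.60 to 9.57 and summit pileups of 6 to 13 fragments. Scaled to the coverage of the DMSO call, all 20 summits would have reached the lowest −log10 p of that list. The DMSO coverage is the higher (1.32 against 0.544 fragments per base), so this scaling raises every summit. Its outcome was fixed in advance and says nothing about depth. The caller numbers peaks along the genome, and a number missing between neighbours marks a peak removed after calling. At 5 of the 20 no DMSO number was missing, and at the others a removed and an absent peak cannot be told apart.

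Leading the 20 was chrX:75942498-75942832, 67316 bp from Pls3, an actin-bundling gene, with a fold of 8.66 on 13 fragments. The next, chr16:86077482-86077816, lay 176357 bp from the aggrecanase gene Adamts5 (fold 8.58, 13 fragments). The region nearest to Gpbp1, which encodes a protein that binds GC-rich promoters, was 11964 bp away (chr13:111502092-111502404, 7.49, 11 fragments). The region 35753 bp from Satb1, a chromatin organiser gene, was shared with AM580 (chr17:51869043-51869555, 7.13 and 7.05). The fifth, chr3:16997773-16998299, was 780736 bp from Ythdf3, a reader of methylated RNA (7.13, 10 fragments).

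Regions of the 9-cis retinoic acid list alone fell into near and far ones. Of the 19, 7 lay 10 to 50 kb from the nearest protein-coding gene, 1 at 50 to 100 kb, 3 at 100 to 500 kb and 8 beyond. Their median distance to the nearest protein-coding gene was 332.6 kb. It was 43.2 kb for the other single-list regions and 33.7 kb for regions in every list. By list, the other single-list medians were 38.8 kb for CD3254 (53 regions), 87.5 kb for AM580 (13) and 112.0 kb for AM+CD (4). The 8 beyond 500 kb are 42.1% of the 19, beside 8 of 70 other single-list regions (11.4%) and 2 of 40 regions in every list (5%). This split was chosen after its values were seen and is a description of 1 list, with no test. These summits rest on few fragments of the shallowest call, and the part of depth in the distance was not tested.

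**Figure D3:**
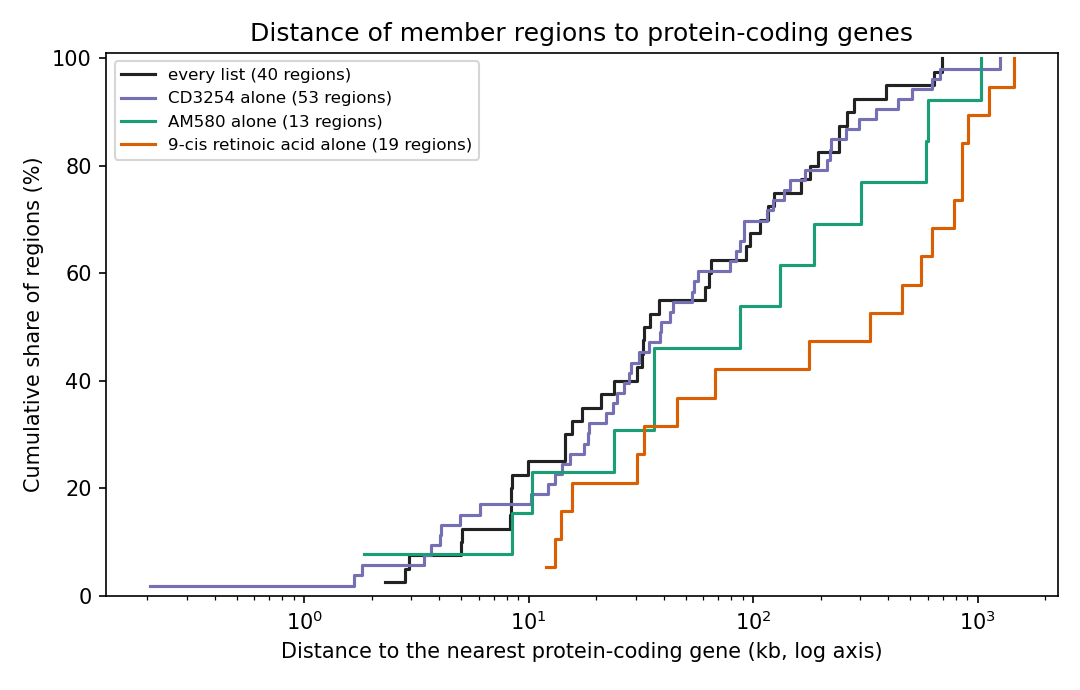
The curves give the cumulative share of regions (%) by distance in kb to the nearest protein-coding gene, on a log axis, for 4 sets of members. The curve for 9-cis retinoic acid alone (19 regions, median 332.6 kb) runs to the right of those for CD3254 alone (53, median 38.8 kb) and for every list (40, median 33.7 kb). The set of AM580 alone (13 regions) has a median of 87.5 kb.

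In the other direction, 23 of 67 DMSO regions lacked a peak in the 9-cis retinoic acid list (34.3%, 24.1 to 46.3), against 39.4% of all DMSO regions. Their DMSO peaks were weaker and narrower at the median. Summit pileups were 9 to 319 fragments (median 32), against 14 to 649 (80.5) in the 44 shared regions, and median −log10 q was 22.0 against 72.7. Widths were 255 to 512 bp with a median of 322 bp, against 345 to 2209 bp with a median of 481.5 bp. The groups overlapped in each of these measures, in width between 345 and 512 bp. Median folds were 10.9 (4.30 to 32.7) without and 14.5 (6.45 to 30.6) with 9-cis retinoic acid. Among DMSO peaks with a fold over 20, the 6 without 9-cis retinoic acid were 255 to 329 bp wide and the 10 with it 345 to 679 bp, with no overlap. That fold limit was set after the values were seen. Narrower DMSO peaks also went with a missing peak in other lists, with a median of 317.5 bp without and 447 bp with AM580, and of 330 bp without and 464.5 bp with AM+CD.

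The same measure in isolated regions inside protein-coding spans, which are other regions of the same lists, ran the same way. There the 17 DMSO peaks without 9-cis retinoic acid had a median width of 342 bp (254 to 689) and the 26 with it 459 bp (316 to 1050). The shortest peak of the whole 9-cis retinoic acid list was 304 bp wide, against 254 bp in the DMSO list. Local background moved with width, at a median of 1.38 times the background coverage of the list without 9-cis retinoic acid and 2.47 times with it, and its part was not tested. Scaled to the coverage of the 9-cis retinoic acid call, 20 of the 23 summits would have reached its lowest −log10 p. At 11 of the 23 no peak number of that list was missing.

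**Figure D4:**
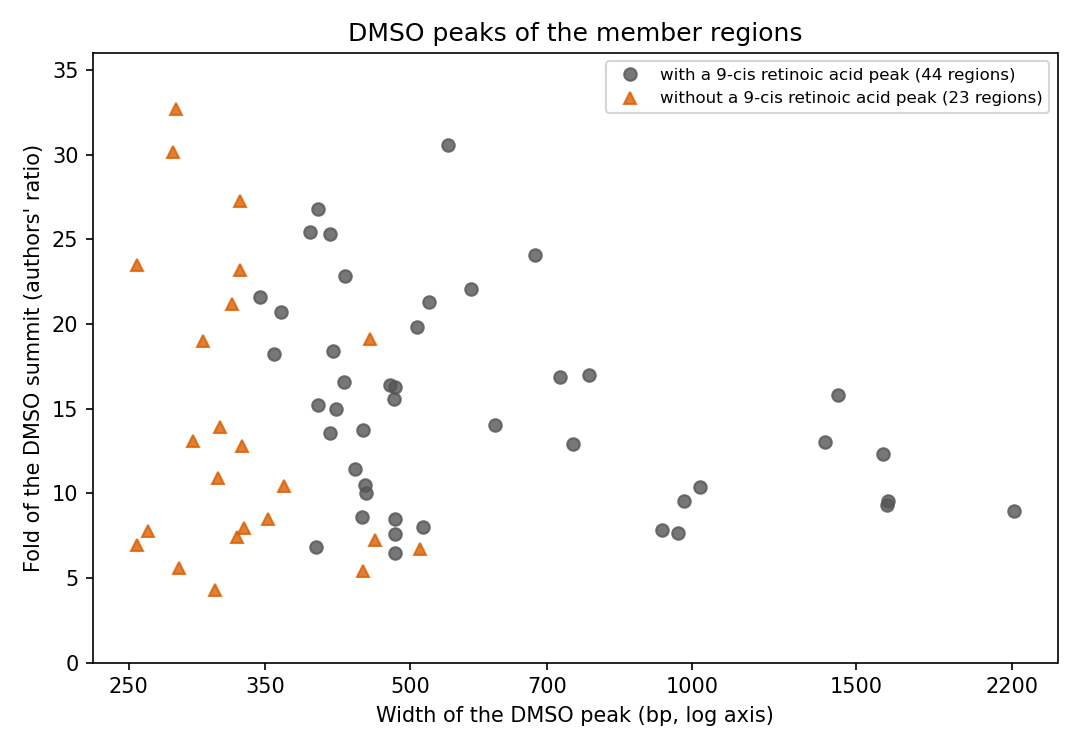
Each point is the DMSO peak of a member region, by its width in bp (log axis) and its fold over local background. Triangles (23 regions without a 9-cis retinoic acid peak) gather at 255 to 512 bp at all folds, and circles (44 regions with such a peak) begin at 345 bp.

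The leading region of the 23, chrX:143483005-143483301, lay 35065 bp from Pak3, which encodes a kinase activated by small GTPases. It rested on 319 fragments with DMSO, 339 under AM580, 641 under CD3254 and 426 under AM+CD, in peaks of only 281 to 297 bp. In the 9-cis retinoic acid list 1 peak number was missing around this place. Next was chr9:24542015-24542313, 14734 bp from Dpy19l2, a gene needed for the sperm acrosome, with 208 fragments with DMSO, 434 under CD3254 and 316 under AM+CD. The AM580 list had no peak there either, with 4 numbers missing around it. The third, chr12:120028673-120029008, was 7431 bp from Tmem196, and no number was missing there in the 9-cis retinoic acid list. It held 137, 121, 211 and 215 fragments with DMSO, AM580, CD3254 and AM+CD, and the summits fell within 14 bp.

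Further regions of this kind met lncRNA genes. At Gm36684, 48241 bp from Tcp10c, the DMSO fold was 23.2 and the peaks 324 to 377 bp wide (chr17:13305955-13306331). At Gm32085, 12121 bp from Pigk, a gene of the enzyme that attaches membrane anchors, it was 19.0 (chr3:152701655-152701964). Neither left a number missing in the 9-cis retinoic acid list.

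AM580 was set against DMSO for an agonist of RARα alone. Of its 85 member peaks, 59 overlapped DMSO (69.4%, 59.0 to 78.2) and 26 stood without it, against 76.8% and 23.2% over its whole list. AM580 alone held 13 of the 26, and all 26 would have reached the DMSO limit at DMSO coverage. That coverage is above that of AM580 (1.32 against 0.985 fragments per base), so this outcome too was fixed in advance. No DMSO number was missing at 7 of the 26. The leading region, chr1:157877238-157877610, lay 308813 bp from Sec16b, a gene of protein exit from the endoplasmic reticulum, with 56 fragments in AM580 and 107 in CD3254 and summits 2 bp apart. Then came chr4:64497804-64498257, 450789 bp from the matrix glycoprotein gene Tnc, with folds of 12.4 under AM580, 17.4 under CD3254 and 12.9 under AM+CD.

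Near Epm2a, the laforin gene, a region 32311 bp away had folds of 12.3 under AM580 and 7.94 under CD3254 (chr10:11491975-11492282). No number was missing there in the DMSO or 9-cis retinoic acid list. The strongest region of the AM580 list alone was chr4:78513221-78513560, 301479 bp from the receptor phosphatase gene Ptprd (fold 11.6, 24 fragments). The fifth of the 26 met the lncRNA gene Gm39850, 32289 bp from the transcription factor gene Sp3 (chr2:73012735-73012998, 10.1 under AM580 and 8.84 under CD3254).

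Of the 67 DMSO regions 8 had no AM580 peak (11.9%, 6.18 to 21.8), against 11.5% of all DMSO regions. With lists trimmed to 200 peaks this share was 2.13%. After the region near Dpy19l2 these were weak, with pileups of 24 fragments at chr16:86820782-86821146, in the lncRNA gene Gm32624, and of 17 at chr7:110059544-110059845. The latter was 1844 bp from Zfp143, a transcription factor gene. Both also had a CD3254 peak, with 67 and 21 fragments. At AM580 coverage 7 of the 8 would have passed, and at 1 of the 8 no AM580 number was missing.

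CD3254 was set against DMSO for an agonist of the RXR partner. Every one of the 67 DMSO member regions had a CD3254 peak (0 without, 0%, Wilson upper bound 5.42%), against 0.717% without over all DMSO regions. Of 134 CD3254 member peaks 67 overlapped DMSO (50%, 41.7 to 58.3) and 67 stood without it, against 56.6% and 43.4% over its whole list. With every list trimmed to its 200 best peaks the share that overlapped DMSO was 83.3%. Of those 67, 53 were in no other list, with folds of 3.00 to 28.8 (median 5.67) and pileups of 12 to 200 fragments (median 21). At DMSO coverage 51 of the 67 would have reached the DMSO limit, and at 13 no DMSO number was missing.

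Of the 5 strongest CD3254 regions without DMSO, 4 were 251 to 268 bp wide. The first, chr16:98107444-98107698, was 255 bp wide with 200 fragments (fold 28.8), 90688 bp from B230307C23Rik, and no number was missing there in the DMSO or 9-cis retinoic acid list. The second met the pseudogene Gm5204, 508834 bp from the growth factor gene Nrg3, with a width of 268 bp and 126 fragments (chr14:37856001-37856268, 21.3). The third was the region 308813 bp from Sec16b, with a fold of 22.9 and a CD3254 peak of 373 bp. The fourth, 251 bp wide, met the lncRNA gene Gm31055, 219938 bp from Ajap1, a cell junction gene (chr4:153153033-153153283, 92 fragments). The fifth was 264 bp wide, 682040 bp from Gm40892 (chr12:93576990-93577253, 82 fragments), again with no DMSO number missing. The shortest peak of the CD3254 list was 249 bp.

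AM+CD was set against DMSO and then against each agonist. Of its 60 member peaks, 50 overlapped DMSO (83.3%, 72.0 to 90.7) and 10 stood without it, against 89.4% and 10.6% over its whole list. It led with the region 450789 bp from Tnc (46 fragments) and with chr3:97462238-97462651, 51059 bp from the odorant receptor gene Olfr1402. That region had folds of 7.40 under AM580, 8.60 under CD3254 and 12.3 under AM+CD, and no number was missing in the DMSO or 9-cis retinoic acid list. The region 15781 bp from Jazf1, a nuclear zinc finger gene, was shared with CD3254 (chr6:53084405-53084875, 7.35 and 7.07). The next were in the AM+CD list alone. They lay 1042289 bp from the protocadherin gene Pcdh9 (chr14:91970932-91971411, 6.40, 19 fragments) and 20221 bp from the ubiquitin ligase gene Rchy1 (chr5:91928245-91928621, 5.76, 17 fragments). At DMSO coverage 7 of the 10 would have passed, and at 1 no DMSO number was missing.

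AM580 peaks were met by 50 of the 60 AM+CD members (83.3%, 72.0 to 90.7), against 91.2% of the whole list, and CD3254 peaks by 55 (91.7%, 81.9 to 96.4), against 96.5%. From the other side, 50 of 85 AM580 members met AM+CD (58.8%, 48.2 to 68.7) and 55 of 134 CD3254 members did (41.0%, 33.1 to 49.5). Over the whole lists these shares were 64.7% and 44.8%. AM580 and CD3254 shared 70 of their peaks, which is 82.4% of 85 and 52.2% of 134, beside 90.7% and 59.4% over the whole lists.

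Of the 67 DMSO regions 17 had no AM+CD peak (25.4%, 16.5 to 36.9), against 27.2% of all DMSO regions, and 8.51% with lists trimmed to 200 peaks. All 17 would have passed at AM+CD coverage, but that coverage is above that of DMSO, so this was fixed in advance. Peak numbers were missing around each of the 17 in the AM+CD list, which kept 32.4% of its numbers. A removed peak and an absent peak cannot be told apart there. The strongest was chr14:8286634-8286920, 9350 bp from Fam107a, with 123 fragments with DMSO, 110 under AM580 and 208 under CD3254. The next met the lncRNA gene Gm46595, 9993 bp from Myl12b, a myosin light chain gene, with 37, 49 and 71 fragments in the same order (chr17:70963658-70963970). The third was chr8:15519794-15520104, 372434 bp from Csmd1, with 36, 45 and 62 fragments. None of these had a 9-cis retinoic acid peak.

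9-cis retinoic acid and AM+CD were compared because the peak names of AM+CD join an RAR and an RXR agonist, and 9-cis retinoic acid binds both receptors. Of the 64 9-cis retinoic acid members 42 met an AM+CD peak (65.6%, 53.4 to 76.1), against 82.5% of its whole list. Of the 60 AM+CD members 42 met 9-cis retinoic acid (70.0%, 57.5 to 80.1), against 70.9%. All 42 shared regions also had a DMSO and a CD3254 peak, and 40 of them an AM580 peak. Across the 551 regions of the series, the same combinations of lists held 158 regions with AM580 and 2 without it. This pattern is thus not particular to the members.

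The comparisons with DMSO share the DMSO list, so their shares are given side by side and not tested against each other. Isolated regions inside protein-coding spans served as the nearest comparison for the members. A peak in every list was held by 40 of 172 outside and 25 of 90 inside, a difference of -4.52 points (outside minus inside, Newcombe 95% interval -16.0 to 6.16). Regions in a single list made up 51.7% outside and 42.2% inside, a difference of 9.52 points (-3.19 to 21.7). The share of peaks that met DMSO differed by -10.0 points with 9-cis retinoic acid (-26.1 to 9.30), -2.29 under AM580 (-17.0 to 13.6), -6.58 under CD3254 (-20.0 to 7.38) and -6.14 under AM+CD (-19.2 to 9.32). All 6 intervals include 0.

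In distance to genes, 32 of 172 members lay within 10 kb of a protein-coding gene (18.6%, 13.5 to 25.1), against 19% of the 348 regions outside such genes on the main chromosomes. Within 1 kb there were 2, at AY761185 and at Arhgap25 (683 bp, chr6:87457478-87457861, AM580 and AM+CD alone). Beyond 50 kb stood 79 (45.9%, 38.7 to 53.4) and beyond 500 kb 20. A CD3254 region of fold 14.3 stood 1669 bp from Cdc20, an activator of the anaphase-promoting complex (chr4:118439012-118439361, 57 fragments). Another, of fold 6.37, was 1815 bp from the ribosomal RNA processing gene Rrp1 (chr10:78414858-78415107), and an AM580 region of fold 4.43 was 1853 bp from Elobl (chr11:88968784-88969076). At Mid1, the ubiquitin ligase gene on the pseudoautosomal boundary, a region in every list lay 2822 bp away (chrX:169993620-169994988, folds 7.66 to 10.6). The gene table gives spans only, so exons and introns were not separated.

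Non-coding genes were met by 23 of 172 members (13.4%, 9.08 to 19.3), against 16.1% of the 348 regions outside protein-coding genes on the main chromosomes. Of the 23, 20 met lncRNA genes and 3 pseudogenes. Isolated regions inside protein-coding spans met such genes in 5 of 90 (5.56%). Among regions in every list this was 6 of 40 (15.0%, 7.06 to 29.1) and among those in a single list 6 of 89 (6.74%, 3.13 to 13.9). The rest of the 23 were in 2 to 4 lists, where the share was higher than in either, so it did not rise steadily with the number of lists. Besides those described above, the every-list regions were at Gm52725, 635853 bp from the ephrin receptor gene Epha7 (chr4:28176809-28177213, folds 14.5 to 24.0), and at Gm39425, 8359 bp from the lipid transfer gene Pitpnc1 (chr11:107198542-107199533, 5.73 to 8.70).

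No member lay within 50 kb of the listed genes of retinoid biology. None of 28 retinoic acid receptor targets had a member within 50 kb (0%, Wilson upper bound 12.1%), against 0.731% of all protein-coding genes, and the closest was Rarres2 at 448 kb. The same held for 28 nuclear receptors and co-regulators (closest Ncoa1, a steroid receptor coactivator, at 169.8 kb). It held for 26 acinar enzymes and transcription factors (closest Cel, a pancreatic lipase, at 371 kb; upper bound 12.9%) and for 20 retinoid metabolism and transport genes (closest Fabp5 at 1766 kb; upper bound 16.1%). Every upper bound lies above the share of all genes, so at these list sizes a share below the background was not detectable. Among all regions of the series, members or not, 1 receptor target and 1 nuclear receptor or co-regulator had a region within 50 kb.

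At the edges of the rule, the members nearest to the start limit were chr16:3349514-3350537 and chr16:3351031-3352045 (folds 8.59 to 9.62 and 7.16 to 7.99). The nearest peaks left out by it were chr9:3258572-3259124 (11.4 to 18.3) and chr6:3201184-3201686 (10.2 to 16.1). The same 2 members on chromosome 16 would have joined a longer run at gaps of 114 kb. The nearest regions dropped for their run, chr6:47747991-47748418 and chr6:47765791-47766243, would have been kept, in a shorter run, with a gap limit of 94 kb.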

How the data were processed

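Peaks were read from the deposited lists, 1 for each treatment, in narrowPeak layout. Bowtie2 2.5.1, MACS2 2.2.7.1, SAMtools 1.18, FastQC, bedtools and the build mm10 are named in, and credited here to, the submitters' processing notes. The sources used here state neither the control nor the threshold nor how replicates were pooled. Per the labels, libraries had 9 PCR cycles. The fold is the authors' ratio of a summit over its local background, with 1 added to both. The deposited −log10 p and −log10 q are the caller's own. The deposited score follows the −log10 q and was not used further.

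Peaks overlapping by at least 1 bp were joined with Python 3.11.15. Genes came from RefSeq GRCm38.p6 (21900 protein coding of 49997). Whole-number summit pileups were recovered from the fold and −log10 p as a Poisson tail in SciPy 1.17.1, in 1529 of 1529 peaks within a relative 0.0002. The lowest local background of a list served as its coverage. Peak numbers absent from a list show peaks removed after calling. The steps were tested on simulated data.

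Regions were named by rules: the 10 best-ranked in every list, the 5 best of each ligand list without DMSO, the 3 best DMSO regions without each ligand, the 8 nearest genes, 8 meeting non-coding genes, and the 3 highest folds of each list. Genes within 50 kb of a listed gene would also have been named. Members and lists were chosen with earlier results of these data known. Shares have 95% Wilson intervals. With 1 list per treatment no test between treatments was run.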

Additional observations from a re-analysis of the deposited data

How the results depend on the processing

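Of 152 values recomputed for 20 results, 141 stayed inside the 95% interval of the share or within 1.5 times the count. Counting only peaks with −log10 q of at least 5, the share of 9-cis retinoic acid members that met DMSO was 85.1% and that met AM+CD 80.9%. With every list trimmed to its 200 best peaks, the members fell to 88 regions, 34 of them in a single list, with 51 AM580 and 54 CD3254 peaks. The shares that met DMSO were then 54.7% with 9-cis retinoic acid, 90.2% with AM580 and 83.3% with CD3254, and the DMSO regions without AM580 and AM+CD were 2.13% and 8.51%. The 9-cis retinoic acid list holds 200 peaks and was not shortened, so its share could not rise. Chain gaps of 50 or 200 kb, an overlap of 50% of the shorter peak and spans of all RefSeq genes moved none of the 20 results this far. Spans extended by 5 kb were run for the number of member regions (156), and the scaling to the ligand list's depth for the 4 shares of DMSO regions without a ligand peak, and neither moved these. Nor did the results move under 3 alternatives chosen after seeing the data: the scaling to DMSO depth (run for 4 shares), leaving out the 9-cis retinoic acid list (3 counts) and leaving out the 15 members in chains of 2 (20 results). Scaling to a deeper list can only raise a summit, so some of these scaled shares could not move. They were those of 9-cis retinoic acid and AM580 at DMSO depth, and of DMSO regions at CD3254 and AM+CD depth. No paired analysis was possible because each treatment has 1 list, and for the same reason no replicate could be left out. The 9-cis retinoic acid list had the lowest background coverage, with summits of 6 fragments listed, and the part of depth in its results was not tested.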

Other observations

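A gene of a transfer, ribosomal, small nucleolar, small nuclear or micro RNA lay within 5 kb of 7 of 172 members (4.07%), beside 10 of the 348 regions outside protein-coding genes on the main chromosomes (2.87%), which include the 7. The neighbours were picked after the genes were seen, and no excess is read from them. A region of the CD3254 and AM+CD lists (chr8:123600607-123601296, folds 5.06 and 5.44) stood 628 bp past the 5S ribosomal RNA gene n-R5s136, in the tandem 5S array. A region of AM580 alone (chr8:123617372-123617614, fold 8.06) stood 444 bp past n-R5s146 of the same array. Transfer RNA genes were within 5 kb of 2 regions, both of the CD3254 list alone. The region 3675 bp from Fcgr3 (chr1:171069590-171069864, fold 5.50) had 9 of them, the closest, n-TEctc8, at 1928 bp. The region chr17:23531645-23532047 (fold 5.06) had 2, the closest, n-TKctt13, at 1915 bp. Reads of such near-identical copies cannot be placed with certainty, and the sources used here do not state how they were treated.

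In Snhg14, the imprinted host transcript of brain snoRNAs on chromosome 7, 2 regions stood 853 bp apart on either side of the snoRNA gene Gm25210. The region at 59768578 to 59768915 was in the CD3254 list alone (fold 5.39). The other, at 59769769 to 59770150, had 3 lists, with folds of 6.95 under DMSO, 7.60 under AM580 and 9.86 under CD3254. Zinc finger genes with the prefix Zfp were the nearest protein-coding gene of 9 of 172 members (5.23%), beside 1.81% of all protein-coding genes, vomeronasal receptor genes (Vmn) of 5 (2.91% beside 1.62%) and odorant receptor genes (Olfr) of 4 (2.33% beside 5.07%). Shares of regions are here set beside shares of genes, and the nearest genes of regions that are not members were not counted. Neighbouring regions were counted separately, as with the 2 nearest to Zfp945. These families were chosen after the names were seen, and no test was made.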
